A study of Danio rerio with 13 samples.

Results

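The circadian clock genes described here are 8 core genes, per1a, per1b, per2, per3, clocka, clockb, arntl1a and arntl1b, out of 31901 zebrafish genes counted by RNA-seq. They were taken as a list of names, drawn up with earlier results of these data known, and all 8 were found by Ensembl gene ID in each of the 13 samples. The samples were GFP+ endocrine cells sorted from Tg(pax6b:GFP)ulg515 zebrafish of the AB strain, a line in which the pax6b promoter drives GFP and which every group carried. The pancreatic endocrine cells (PECs) came from the dorsal pancreatic bud at 27 hpf, with 3 wild-type and 3 pax6b-/- preparations, and the enteroendocrine cells (EECs) came from the gut at 4 dpf, with 4 wild-type and 3 pax6b-/- preparations. The mutants were homozygous for the sa0086 allele of pax6b, a homeodomain transcription factor of endocrine cells, and were picked by an absent or reduced lens. They came from crosses of heterozygous carriers, and the wild types were not said to be their siblings. Clutch therefore cannot be told apart from genotype. Each preparation pooled about 200 animals. Age and dissociation enzymes (TrypLE Select with collagenase IV for PECs, collagenase IV with Dispase for EECs) went together with tissue, so that these cannot be told apart from it, and the light regime and the hour of collection were not given in the sources used here.

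The vertebrate clock is a feedback loop of transcription. CLOCK and BMAL1, the products of the clock and arntl1 genes, bind E-box elements as a pair and activate genes that include per and cry, and the PER and CRY proteins then repress the pair. Zebrafish tissues carry clocks of their own that respond to light directly, and per2 is the period gene best known for induction by light in this species. Many clock genes are kept as pairs of co-orthologues in zebrafish (a and b), and reads shared within such a pair cannot be seen in gene counts.

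Depth ranged from 22423938 to 61895597 counts on genes (median 33343637), and levels are given as counts per 1000000 of these (CPM). A floor of 3 counts corresponded to 0.0485 to 0.134 CPM, and each member was above it in every sample. The PEC and EEC labels fitted their summed markers: the level of 6 pancreatic markers was 65470 to 76846 CPM in wild-type PECs and 1405 to 2788 CPM in wild-type EECs, and that of 6 enteroendocrine markers was 36.9 to 64.0 and 47412 to 65858 CPM. In the mutants the pancreatic sum was 11970 to 16338 CPM in PECs and 1479 to 2130 CPM in EECs. The pancreatic marker gcga overlapped between wild-type tissues, with means of 1504 CPM in PECs and 1871 CPM in EECs. The mutated base cannot be seen in gene counts, and pax6b itself was counted in every sample, at 466 to 807 CPM in wild-type and 1028 to 1473 CPM in mutant EECs and at 2509 to 5086 and 3199 to 7530 CPM in wild-type and mutant PECs. Replicates were separate preparations. Overlap of samples between groups is described for the genes named and was not counted over all genes. Tests between groups were edgeR quasi-likelihood tests over all genes, a gene was called at an adjusted p under 0.1, and wild-type EEC replicate 4 is given with the levels but entered the tests only as an alternative.

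**Figure D1:**
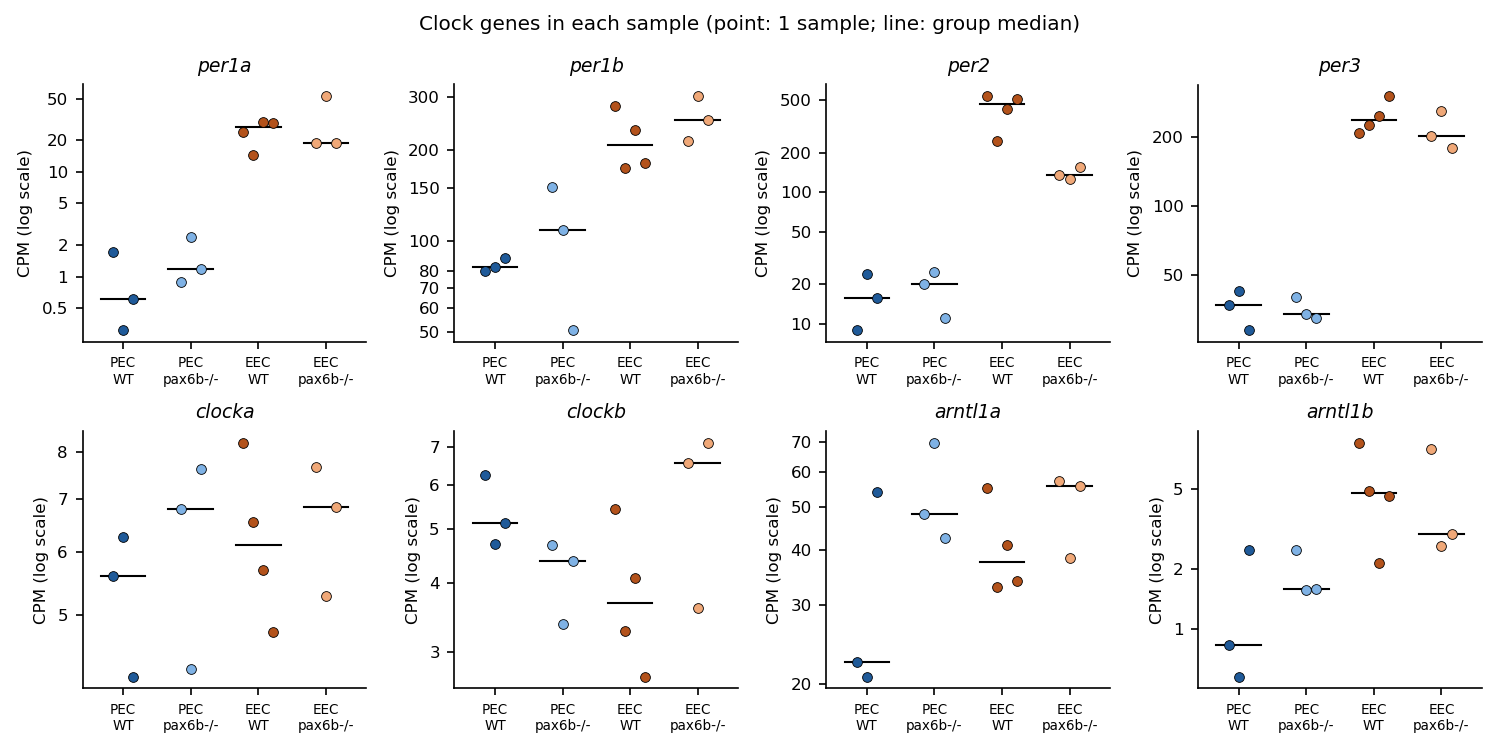
Level of each of the 8 clock genes in CPM (vertical axes, log scale, with a range of their own in each panel) in the 13 samples of the 4 groups; each point is 1 sample and each line the group median. All 7 EEC samples lie above all 6 PEC samples for per1a, per1b, per2 and per3, and the mutant EECs lie below the wild-type EECs for per2.

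All 4 period genes were higher in EECs than in PECs, whereas clocka, clockb and arntl1a did not pass the test. In the wild type, 5 of the 8 members were higher in EECs and 0 were lower, beside 34.2% of all genes tested that differed and 18.4% that were higher. The median log2 change of the 8 members was 1.79, beside -0.02 over all genes. In the mutants 5 of 8 were again higher and 0 lower, beside 40.3% of all genes called and 21.0% called higher, with a median log2 change of 1.45 against -0.06. The pair of comparisons shared no sample. In these bulk samples, more RNA per cell and more cells that express a gene cannot be told apart.

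per2 (ENSDARG00000034503), the light-responsive period gene, differed widely between tissues. Its level was 8.99, 23.8 and 15.9 CPM in wild-type PECs and 539, 248, 428 and 512 CPM in wild-type EECs. In the mutants it was 20.3, 24.7 and 11.1 CPM in PECs and 137, 126 and 155 CPM in EECs. The lowest EEC sample was thus far above the highest PEC sample in either genotype, and wild-type EEC replicate 2 stood below the other wild-type EECs. The log2 change from PECs to EECs was 4.65 (SE 0.45, edgeR adjusted p = 1.31e-05) in the wild type and 3.06 (SE 0.31, adjusted p = 2.49e-05) in the mutants. By group means per2 was 26.6-fold higher in wild-type and 7.47-fold higher in mutant EECs.

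per1a (ENSDARG00000056885), a period gene of the loop's repressor arm, was near the lower end of detection in PECs. It was counted at 1.72, 0.308 and 0.614 CPM in wild-type PECs and at 0.888, 2.38 and 1.19 CPM in mutant PECs, from 9 to 66 reads. In EECs it reached 24.2, 14.6, 29.99 and 29.4 CPM in the wild type and 18.7, 52.8 and 19.0 CPM in the mutants. The groups did not overlap between tissues, and mutant EEC replicate 2 was the highest sample. The log2 change was 4.72 (SE 0.63, edgeR adjusted p = 0.000147) in the wild type and 4.54 (SE 0.57, adjusted p = 0.000111) in the mutants.

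per3 (ENSDARG00000010519), a period gene whose RNA is widely used as a rhythm reporter in zebrafish, was separated by tissue in both genotypes. It was at 37.1, 42.7 and 28.9 CPM in wild-type PECs and 207, 225, 246 and 299.8 CPM in wild-type EECs. The mutant values were 40.1, 33.8 and 32.6 CPM in PECs and 202, 258 and 179 CPM in EECs. The log2 change was 2.63 (SE 0.30, edgeR adjusted p = 4.53e-05) in the wild type and 2.76 (SE 0.25, adjusted p = 1.14e-05) in the mutants.

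per1b (ENSDARG00000012499), the co-orthologue of per1a, already had a sizeable level in PECs. It was at 79.7, 82.3 and 87.8 CPM in wild-type PECs and spread more widely, at 152, 109 and 50.8 CPM, in mutant PECs. In EECs it was at 281, 175, 233 and 182 CPM in the wild type and 215, 302 and 253 CPM in the mutants. The tissues did not overlap, and the log2 change was the smallest of the period genes, 1.49 (SE 0.27, edgeR adjusted p = 0.00126) in the wild type and 1.48 (SE 0.35, adjusted p = 0.00774) in the mutants.

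**Figure D2:**
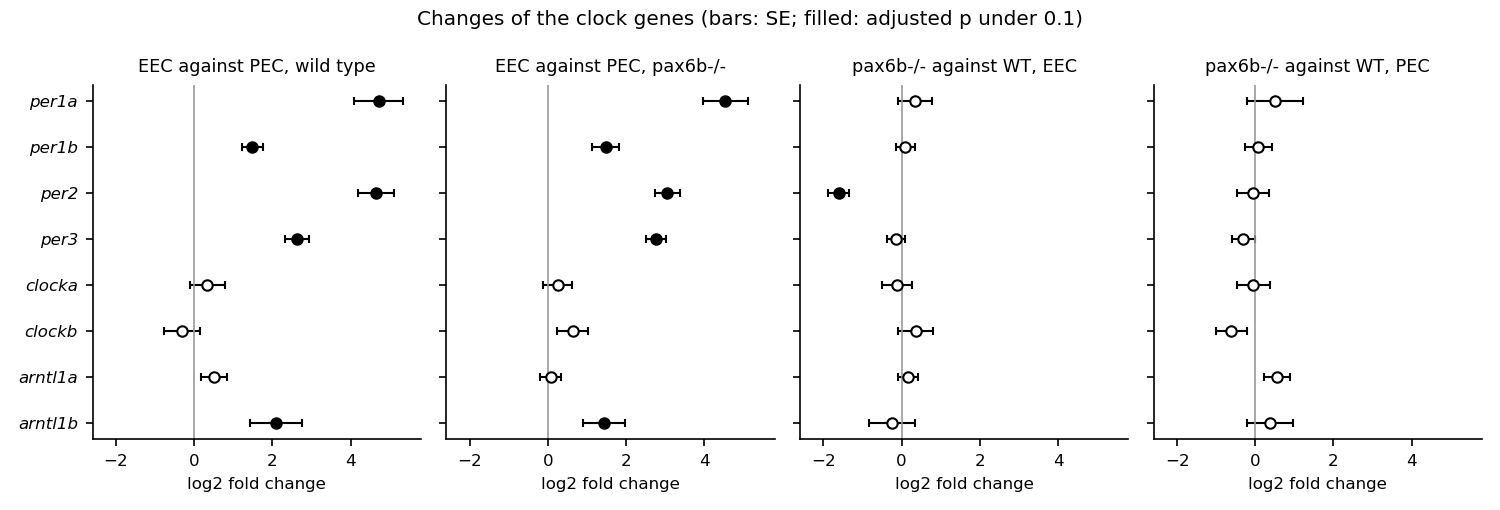
Log2 fold changes (horizontal axes) with SE of the 8 clock genes in the 4 comparisons; filled points passed an adjusted p of 0.1 over all genes tested and open points did not. The period genes and arntl1b are filled in both tissue panels, per2 alone is filled for mutant against wild type in EECs, and no point is filled in PECs.

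Of the activators of the loop, the clock genes did not pass the test in either genotype. clocka (ENSDARG00000011703) and clockb (ENSDARG00000003631), which encode the CLOCK part of the activator, were at 4.18 to 8.23 CPM and 2.71 to 7.14 CPM over all 13 samples, with overlapping tissues in each genotype. The log2 change from PECs to EECs was 0.34 (SE 0.44, edgeR adjusted p = 0.619) for clocka and -0.31 (SE 0.46, adjusted p = 0.666) for clockb in the wild type. In the mutants it was 0.25 (SE 0.37, adjusted p = 0.656) for clocka and 0.63 (SE 0.40, adjusted p = 0.259) for clockb.

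arntl1a (ENSDARG00000006791), which encodes the BMAL1 partner, was at 22.3, 20.7 and 54.1 CPM in wild-type PECs and 48.2, 69.8 and 42.5 CPM in mutant PECs. In EECs it was at 55.1, 32.9, 41.0 and 34.1 CPM in the wild type and 57.2, 38.3 and 55.7 CPM in the mutants. All groups overlapped, and wild-type PEC replicate 3 stood above the other wild-type PECs. The log2 change between tissues was 0.51 (SE 0.33, edgeR adjusted p = 0.290) in the wild type and 0.07 (SE 0.26, adjusted p = 0.865) in the mutants. Without wild-type PEC replicate 3 the wild-type difference passed the threshold, at 0.89 (adjusted p = 0.0506).

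arntl1b (ENSDARG00000035732), the co-orthologue of arntl1a, was low throughout. It was at 0.834, 0.581 and 2.49 CPM in wild-type PECs and 8.45, 4.85, 2.13 and 4.61 CPM in wild-type EECs, where the lowest EEC sample lay below the highest PEC sample. The mutant samples did not overlap, with 2.46, 1.56 and 1.59 CPM in PECs and 7.85, 2.58 and 2.99 CPM in EECs. The log2 change was 2.09 (SE 0.67, edgeR adjusted p = 0.0359) in the wild type and 1.42 (SE 0.54, adjusted p = 0.0632) in the mutants. The wild-type call was lost without wild-type PEC replicate 1 (1.90, adjusted p = 0.121), wild-type PEC replicate 2 (1.80, adjusted p = 0.134) or wild-type EEC replicate 1 (1.52, adjusted p = 0.183). The call in mutants was lost without mutant PEC replicate 2 (1.31, adjusted p = 0.1499), mutant PEC replicate 3 (1.30, adjusted p = 0.142) or mutant EEC replicate 1 (0.74, adjusted p = 0.361).

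Genes known to respond to cell handling also differed between tissues. Of 9 immediate early and heat shock genes, 5 were called higher in EECs in the wild type and 8 in the mutants, and 0 lower, beside 18.4% and 21.0% of all genes called higher. Samples of fosab, junba, junbb and egr1 overlapped between tissues in both genotypes. The mean of egr1 was lower in mutant EECs (881 CPM) than in mutant PECs (1339 CPM). Their summed level was 2073 to 5667 CPM in wild-type and 6372 to 6746 CPM in mutant PECs, and 6313 to 17634 CPM in wild-type and 11267 to 15722 CPM in mutant EECs. hsp70l, a heat shock chaperone, made up much of this in EECs only, at means of 4648 CPM in the wild type and 3896 CPM in the mutants. In PECs its means were 27.0 and 24.4 CPM, and its log2 change between tissues was 7.53 in the wild type. The sum for 8 enterocyte markers was 17.7 to 52.7 CPM over the PECs and 913 to 1790 CPM over the EECs. The part of either in the differences of the period genes was not tested.

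Loss of pax6b was accompanied by a lower per2 level in EECs. Mutant EECs held 140 ± 14.7 CPM of per2 (SD, n = 3) and wild-type EECs 432 ± 131 CPM (SD, n = 4), and the highest mutant sample, at 155 CPM, was below the lowest wild-type sample, at 248 CPM. The log2 change was -1.61 (SE 0.27, edgeR adjusted p = 0.00797), which was 1 of 8 members called, beside 4.18% of all genes called and 2.36% called lower. Adding wild-type EEC replicate 4 gave -1.74 (adjusted p = 0.00665), and over all 15 alternatives the adjusted p stayed between 6.84e-05 and 0.0384.

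No other member passed the test in mutant EECs. The log2 change was 0.35 (SE 0.43, edgeR adjusted p = 0.783) for per1a, 0.10 (SE 0.24, adjusted p = 0.899) for per1b and -0.14 (SE 0.22, adjusted p = 0.834) for per3. For the activators it was -0.11 (SE 0.38) for clocka, 0.36 (SE 0.45) for clockb, 0.16 (SE 0.26) for arntl1a and -0.25 (SE 0.59) for arntl1b, with adjusted p from 0.780 to 0.930. Wild-type and mutant samples overlapped for each of these 7 genes. Over the 8 members the median log2 change was -0.01, beside 0.02 over all genes.

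Marker lists for other cells were read beside the fall of per2. None of 8 enterocyte markers and none of 6 enteric neuron markers tested was called in mutant EECs. The summed level of the enteric neuron list was nonetheless 324 to 491 CPM in wild-type and 557 to 634 CPM in mutant EECs. Most of it was ret, a receptor tyrosine kinase, with means of 371 CPM in wild-type and 558 CPM in mutant EECs. Means of hand2, phox2bb, phox2a and elavl3 were 1.97 to 6.399 times the wild-type means in mutant EECs. That of elavl4 was 0.591 times, and the genotypes overlapped for every gene of this list but ret, which was higher. The enterocyte sum was mostly vil1, at a mean of 1145 CPM in wild-type and 803 CPM in mutant EECs. Means of fabp2, fabp1b.1, apoa4b.2, apoa4b.1, chia.2 and rbp2a were 1.53 to 6.81 times the wild-type means in mutant EECs. Those of vil1 and slc15a1b were 0.701 and 0.835 times, and the genotypes overlapped for every enterocyte marker. Of 5 muscle markers tested 1 was called lower, beside 2.36% of all genes. The muscle list did not move in 1 direction. Means of ckma, actc1b, acta2 and myh11a were 1.47 to 4.61 times the wild-type means in mutant EECs. Those of myhz2 and tnnt3b were 0.143 and 0.204 times. The muscle sum was 3.25 to 14.4 CPM in wild-type and 6.57 to 32.2 CPM in mutant EECs. None of 8 exocrine pancreas, 2 liver and 1 blood and immune markers tested was called. Every exocrine mean was lower in mutant EECs, at 0.0753 to 0.618 times the wild-type mean, with overlapping samples. The exocrine sum was 8.24 to 184 CPM in wild-type and 9.60 to 33.2 CPM in mutant EECs. Of the 9 immediate early and heat shock genes, 1 was called, junbb, which was higher, beside 4.18% of all genes called. Means of fosab, fosb, junba, junbb, egr1 and ier2b were 1.44 to 2.72 times the wild-type means in mutant EECs, and that of hspa5 was 1.05 times. Those of atf3 and hsp70l were 0.609 and 0.838 times. The genotypes did not overlap for junba and junbb, which were higher, and for atf3, which was lower. The summed enteroendocrine markers were lower, at 16554 to 22958 CPM in mutant against 47412 to 65858 CPM in wild-type EECs, and 2 of these 6 genes were called lower. The part of the changed hormone profile, of other cells, of clutch or of the hour of collection in the per2 difference was not tested.

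In PECs, none of the 8 members passed the test between mutants and wild type, by edgeR or by DESeq2, beside 11.2% of all genes called by edgeR, and 0 had an unadjusted p under 0.05. The largest log2 changes were -0.62 (SE 0.40, edgeR adjusted p = 0.422) for clockb and 0.56 (SE 0.33, adjusted p = 0.375) for arntl1a. The 3 mutant samples of clockb, at 4.67, 3.37 and 4.38 CPM, lay just below the wild-type samples, at 6.25, 4.69 and 5.12 CPM. The groups overlapped for the other 7 members. How many of all genes separate in this way was not counted, so the clockb separation is not read as a result. per2 was at 16.2 ± 7.43 CPM in wild-type and 18.7 ± 6.96 CPM in mutant PECs (SD, n = 3 each), with a log2 change of -0.06 (SE 0.42, adjusted p = 0.959). One wild-type library decided a call: without wild-type PEC replicate 3, arntl1a was higher in mutants by 0.96 (adjusted p = 0.0546).

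The difference between the genotype effects in EECs and PECs was tested as an interaction over 12 samples. Of the 8 members, 0 were called, beside 3.58% of all genes, by edgeR and by DESeq2. per2 came nearest, with an interaction of -1.55 on the log2 scale (SE 0.53, unadjusted p = 0.00923, adjusted p = 0.175), and it was the 1 member with an unadjusted p under 0.05. The call depended on single libraries, since per2 passed without wild-type PEC replicate 2 (-2.06, adjusted p = 0.0461), mutant PEC replicate 3 (-1.79, adjusted p = 0.0948) or wild-type EEC replicate 2 (-1.83, adjusted p = 0.0860). The fall of per2 in EECs is therefore not shown to differ from its change in PECs.

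**Figure D3:**
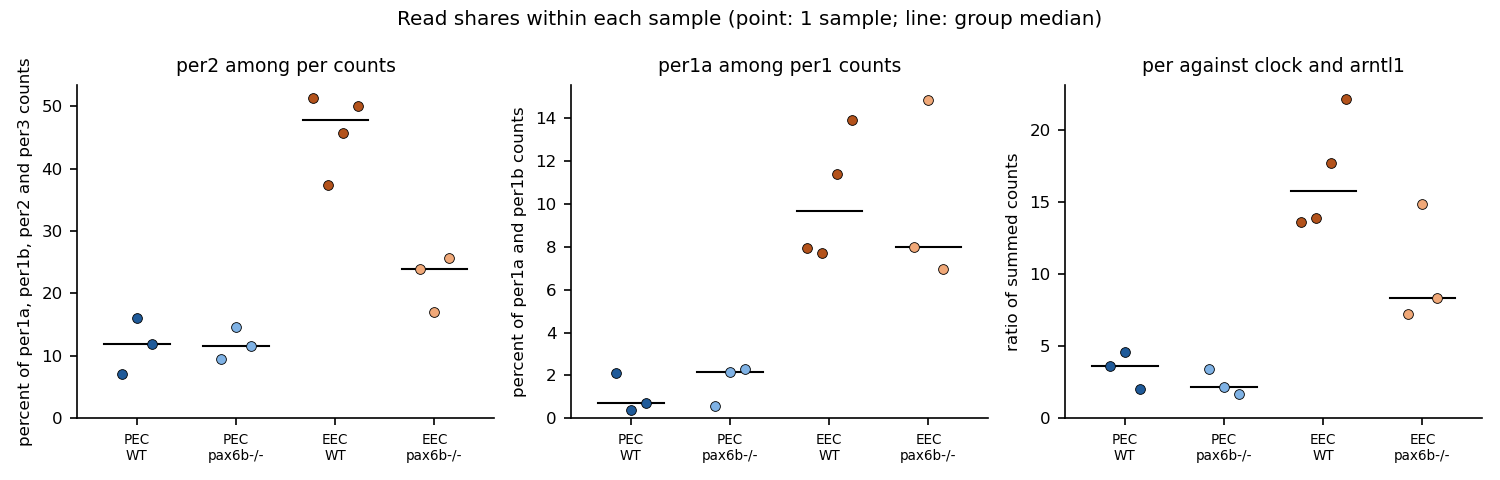
Read shares within each of the 13 samples by group: per2 as a percentage of all per counts (left), per1a as a percentage of per1 counts (middle) and the ratio of summed per counts to summed clock and arntl1 counts (right); each point is 1 sample and each line the group median. per2 takes 37.4 to 51.3% of per counts in wild-type EECs and 17.1 to 25.6% in mutant EECs.

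Ratios of counts within a sample do not depend on how the libraries are scaled, though they compare reads and not molecules, since gene lengths were not used. per2 took 37.4 to 51.3% of the counts of the 4 period genes in wild-type EECs, 17.1 to 25.6% in mutant EECs and 7.05 to 16.0% in the 6 PEC samples. The shares of wild-type and mutant EECs did not overlap. per1a took 6.99 to 14.9% of per1 counts in EECs and 0.373 to 2.30% in PECs. The summed period counts were 13.6 to 22.2 times the summed clock and arntl1 counts in wild-type EECs, 7.22 to 14.9 times in mutant EECs and 1.71 to 4.62 times in PECs, so that the balance of repressor to activator reads separated the tissues without overlap. arntl1a held 86.7 to 97.8% of arntl1 counts in every sample.

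Most other genes of the clock and of the light response followed the period genes between tissues. The 48 such genes in 7 lists included 1 list of 7 genes that light induces, most of them for DNA repair and not parts of the clock. In the wild type 45 were tested, and 34 were higher in EECs and 0 lower, beside 18.4% of all genes called higher. The median log2 change was 1.67. In the mutants 32 of 44 were higher and 0 lower, beside 21.0% of all genes, with a median of 1.42. Over all alternatives, 31 to 36 were higher in the wild type and 29 to 32 in the mutants, with at most 1 lower.

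**Figure D4:**
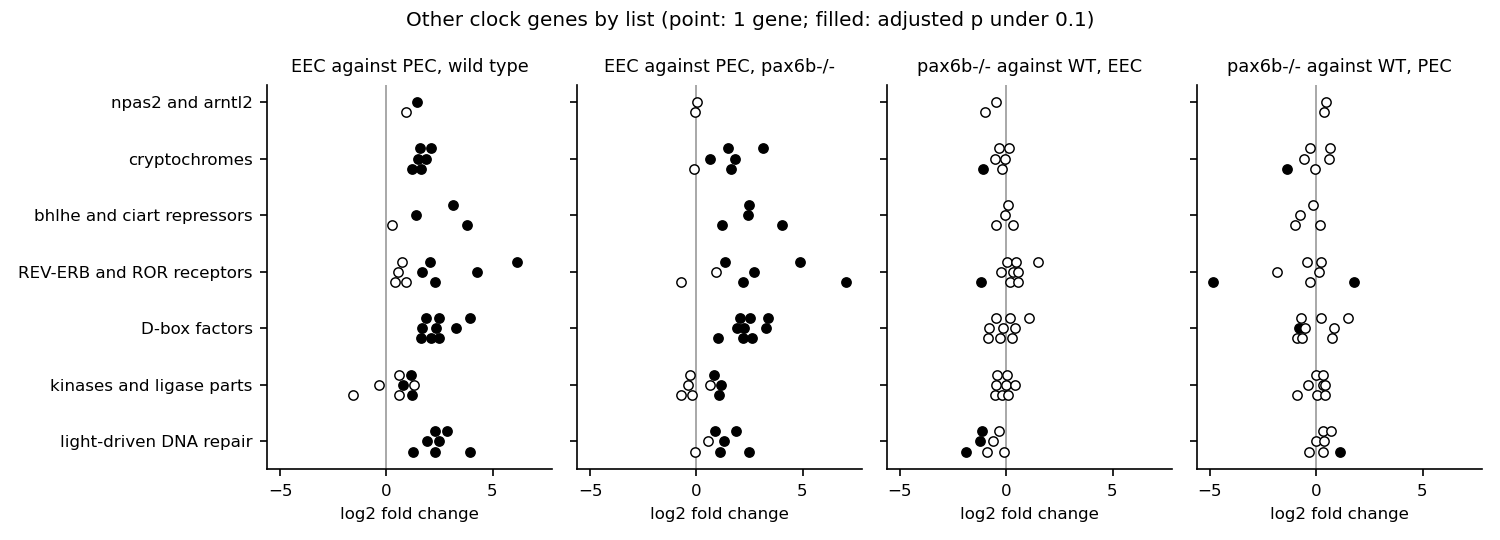
Log2 fold changes (horizontal axes) of the other clock genes and of the light-driven DNA repair list, 1 point per gene, by list and comparison. Filled points passed an adjusted p of 0.1 over all genes tested. All 9 D-box factors tested are filled and above 0 in both tissue panels. nr1d1 is left out of the panel of mutant tissues because mutant PECs held 0 to 6 of its counts.

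Of the activators outside the members, npas2, which can stand in for CLOCK, had a log2 change of 0.93 between wild-type tissues (edgeR adjusted p = 0.178). arntl2, which encodes BMAL2, was at 5.18 to 6.75 CPM in wild-type PECs and 10.5 to 24.0 CPM in wild-type EECs, a log2 change of 1.44 (adjusted p = 0.0150). In the mutants arntl2 was at 7.93 to 12.03 CPM in PECs and 5.07 to 12.04 CPM in EECs and did not pass (-0.04, adjusted p = 0.945).

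The cryptochromes, partners of the PER proteins in repression or relatives of them, were higher in EECs for 6 of 6 genes in the wild type and 5 of 6 in the mutants, beside 18.4% and 21.0% of all genes. cry1aa, known for light induction in zebrafish, was at 60.9 to 78.3 CPM in wild-type PECs and 221 to 414 CPM in wild-type EECs (log2 change 2.12), followed by cry1ab (1.89) and cry3b (1.62). The largest changes in the mutants were those of cry1ab (3.15), cry4 (1.81) and cry1aa (1.64). cry3b was the exception there, with -0.10 (edgeR adjusted p = 0.860). The call of cry2 in the mutants (0.65, adjusted p = 0.0549) was lost in 6 of 14 alternatives, with the highest adjusted p, 0.157, without mutant EEC replicate 2. It was also lost without mutant PEC replicate 1 or 3, without mutant EEC replicate 1 and with library totals as the scaling. The call of cry4 in the wild type (1.51, adjusted p = 0.0377) was lost without wild-type PEC replicate 2 (1.15, adjusted p = 0.125) or wild-type EEC replicate 1 (1.29, adjusted p = 0.132). The levels of the others in wild-type PECs and EECs were 5.93 to 8.31 and 18.8 to 36.6 CPM for cry1ab, 281 to 314 and 616 to 1164 CPM for cry1ba, 19.5 to 22.9 and 40.0 to 53.8 CPM for cry2, and 2.05 to 10.9 and 11.2 to 21.1 CPM for cry4.

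Other repressors at E-boxes and the nuclear receptors of the second loop included genes with larger changes. bhlhe41 and bhlhe40, which encode DEC repressors, changed by 3.81 and 3.15 on the log2 scale in the wild type and by 4.01 and 2.47 in the mutants, and ciarta, which encodes the CHRONO repressor, by 1.38 and 2.42. Of the 4 repressors in this list 3 were higher in the wild type and 4 in the mutants, beside 18.4% and 21.0% of all genes. In the mutants ciartb lost its call without mutant PEC replicate 1 (1.01, adjusted p = 0.161), mutant EEC replicate 1 (1.11, adjusted p = 0.122) or mutant EEC replicate 2 (1.07, adjusted p = 0.144). Of the REV-ERB and ROR receptors, which repress and activate arntl1 in mammals, 5 of 9 were higher in the wild type and 6 of 8 in the mutants, beside 18.4% and 21.0% of all genes. One of the 6, rorca (1.35, edgeR adjusted p = 0.0955), missed the threshold in 10 of 14 alternatives, among them the replicate block (adjusted p = 0.155), the fit of all 12 samples (adjusted p = 0.101) and each single library left out but mutant EEC replicate 3, with the highest adjusted p, 0.441, without mutant EEC replicate 1 (0.71). nr1d1, which encodes REV-ERBα, was at 0.239 to 0.886 CPM in wild-type PECs and 27.5 to 38.2 CPM in wild-type EECs (log2 change 6.15), and rorab changed by 4.25 and nr1d2b by 2.28. In the mutants nr1d1 had 1, 0 and 6 counts in PECs and 714 to 5265 counts in EECs, and rorcb changed by 7.02 and rorab by 4.89.

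The D-box factors, PAR bZIP activators and NFIL3 repressors that clock output and light responses use in zebrafish, were higher in EECs for all 9 genes tested in either genotype. This stands beside 18.4% of all genes called higher in the wild type and 21.0% in the mutants. Of the 11 genes matched in this list, nfil3-3 and nfil3-4 were not tested. The calls of hlfa in the wild type and hlfb in the mutants rested on single libraries: hlfa did not pass without wild-type EEC replicate 1 (1.24, edgeR adjusted p = 0.113), nor hlfb without mutant EEC replicate 1 (1.07, adjusted p = 0.229) or mutant PEC replicate 2 (1.81, adjusted p = 0.101). The largest changes in the wild type were those of nfil3-6 (3.96), nfil3-5 (3.28) and hlfb (2.49), and in the mutants those of nfil3-5 (3.35), dbpb (3.27) and dbpa (2.61). Of the clock kinases and ubiquitin ligase parts, 3 of 8 were higher in either genotype, beside 18.4% of all genes in the wild type and 21.0% in the mutants: csnk1e, csnk1db and fbxl3a, which changed by 1.199, 1.15 and 0.79 in the wild type and by 1.09, 0.81 and 1.16 in the mutants. The wild-type call of fbxl3a (edgeR adjusted p = 0.0874) was lost in 9 of 15 alternatives, among them DESeq2 (adjusted p = 0.162), library totals (adjusted p = 0.213), the replicate block (adjusted p = 0.113) and the fits without wild-type PEC replicate 1 or 2 or wild-type EEC replicate 1 or 2, with adjusted p up to 0.294.

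The last list held 7 genes that light induces in zebrafish, most of them for DNA repair. All 7 were higher in wild-type EECs, beside 18.4% of all genes called higher. The largest changes were those of lonrf1l (3.93), a ring finger gene that is not a repair enzyme, cry5 (2.88), the 6-4 photolyase, and neil1 (2.49), a DNA glycosylase. In the mutants 5 of 7 were higher in EECs, beside 21.0% of all genes, led by lonrf1l (2.47), neil1 (1.88) and cry5 (1.32). xpc, which recognises damage in nucleotide excision repair, and cry-dash, a photolyase relative, did not pass in the mutants (-0.05 and 0.55).

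**Figure D5:**
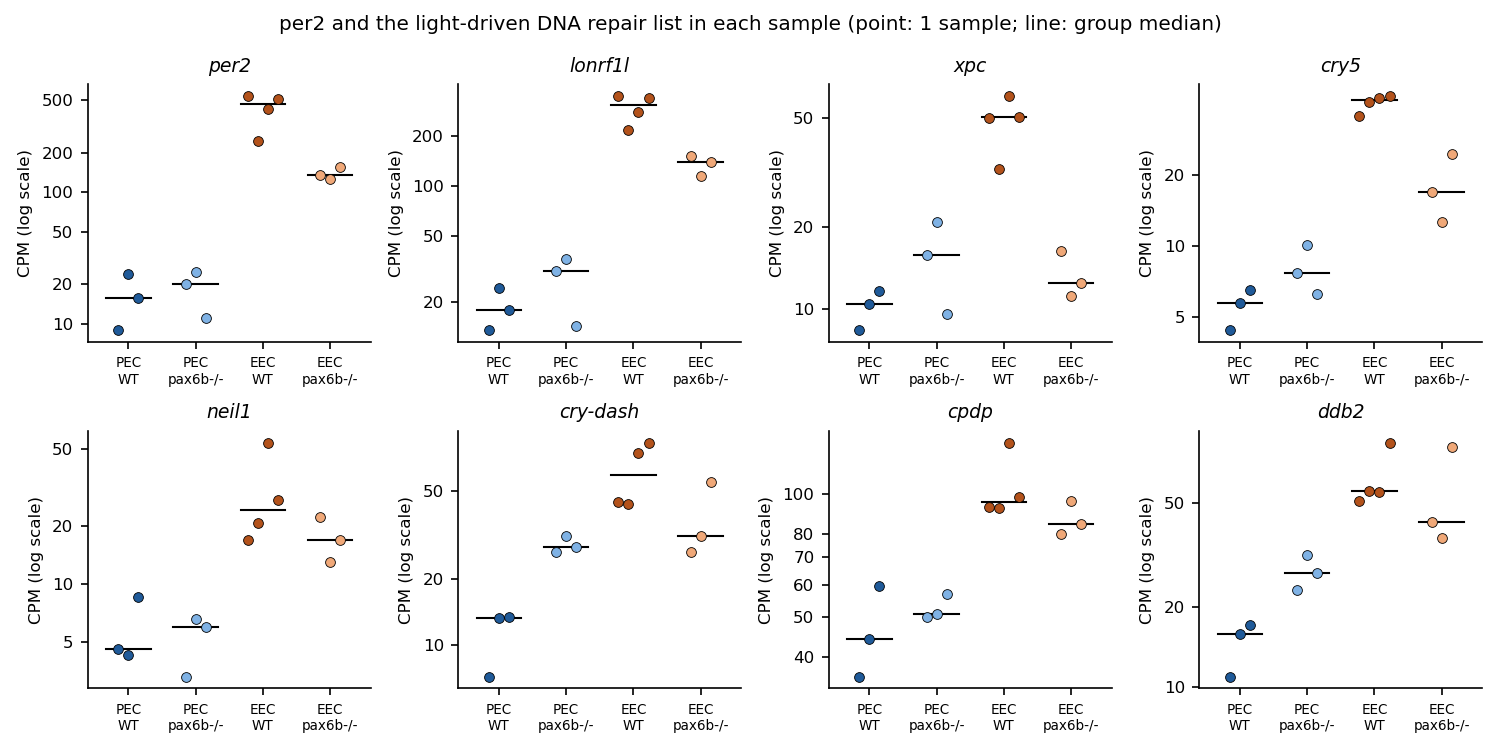
Levels in CPM (vertical axes, log scale, with a range of their own in each panel) of per2 and of the 7 genes of the light-driven DNA repair list in the 13 samples; each point is 1 sample and each line the group median. For per2, lonrf1l, xpc and cry5 every mutant EEC sample lies below every wild-type EEC sample.

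This list held 3 of the 5 genes of the 7 lists that were lower in mutant EECs. In these lists 45 genes were tested there and 0 were higher, beside the 2.36% of all genes that were called lower. xpc was at 49.97, 32.5, 60.2 and 50.7 CPM in wild-type and 16.3, 11.2 and 12.4 CPM in mutant EECs, a log2 change of -1.91 (edgeR adjusted p = 0.00491). lonrf1l was at 346, 215, 278 and 338 CPM in wild-type and 150, 114 and 140 CPM in mutant EECs, a change of -1.12 (adjusted p = 0.0221). cry5 was at 35.6, 41.0, 42.4 and 43.2 CPM in wild-type and 17.0, 12.6 and 24.5 CPM in mutant EECs, a change of -1.22 (adjusted p = 0.0366). None of the 3 overlapped between genotypes, and the other 4 genes of the list had changes from -0.90 to -0.09 that did not pass. The tissue comparison in the wild type and this one shared the wild-type EEC samples.

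xpc was called in all 15 alternatives. lonrf1l was not called without mutant EEC replicate 2 (-1.04, adjusted p = 0.124), and cry5 was not called without mutant EEC replicate 1 (-1.19, adjusted p = 0.127) or replicate 2 (-1.04, adjusted p = 0.174), so that 1 gene of the list was called without replicate 2 and 2 without replicate 1. Outside this light-induced list, the other clock genes lower in mutant EECs were cry3b (-1.098, adjusted p = 0.0944) and rorab (-1.19, adjusted p = 0.0505). Each of this pair missed the threshold in 7 of 15 alternatives, with adjusted p up to 0.312 and 0.221. Leaving out any single EEC library brought the 5 genes called lower to 2 or 3, with 2 without mutant EEC replicate 2.

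In mutant PECs, 2 of 43 genes tested in the same lists were higher and 3 lower, and these 5 were a share close to the 11.2% of all genes called. rorcb, a ROR receptor gene, was at 70.0, 80.4 and 83.4 CPM in wild-type and 3.81, 2.67 and 3.00 CPM in mutant PECs, a log2 change of -4.86 (edgeR adjusted p = 1.70e-06), and it was called in all 14 alternatives. roraa rose by 1.77 (adjusted p = 0.0160), and its call was lost when all 12 samples shared a fit (adjusted p = 0.117). cry-dash was higher by 1.104 (adjusted p = 0.0560), cry1ab lower at -1.37 (adjusted p = 0.0632) and tefa, a D-box activator, lower at -0.79 (adjusted p = 0.0995), and these 3 missed the threshold in 5, 8 and 9 of 14 alternatives. The highest adjusted p was 0.237 for cry-dash without wild-type PEC replicate 1, and 0.270 for cry1ab and 0.380 for tefa without wild-type PEC replicate 2.

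The genes most like each member were sought among 21059 other genes by Pearson's r of log2(CPM + 1) over the 13 samples. For members that differ between tissues, r mostly reflects that split. clocka, clockb and arntl1a were not called between tissues. For per2 the most alike was lonrf1l (r = 0.994), then arhgap22 (r = 0.989). For per1a these were prkcdb (r = 0.985) and tnrc6c1 (r = 0.977), for per3 nmbb (r = 0.994) and tmem176l.2 (r = 0.993), and for per1b the gene named si:ch1073-322p19.1 (r = 0.959) and tjap1 (r = 0.954). nmbb was also one of the enteroendocrine markers. The closest genes to arntl1a were SF3B2 (r = 0.972) and rrp1 (r = 0.950) and to arntl1b ripk1l (r = 0.918) and ASNS (r = 0.917). For clocka and clockb the closest genes reached 0.790 (GBA3) and 0.842 (DMRT3), and were followed by zgc:113531 (r = 0.786) and CRAMP1 (r = 0.798).

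Ordered by mean level, mutant EECs held the most per1a (30.2 ± 19.6 CPM, SD, n = 3) and per1b (257 ± 44.0 CPM), ahead of wild-type EECs (24.6 ± 7.12 and 218 ± 49.5 CPM, n = 4), mutant PECs (1.49 ± 0.791 and 104 ± 50.6 CPM, n = 3) and wild-type PECs (0.880 ± 0.742 and 83.3 ± 4.14 CPM, n = 3). For per3 wild-type EECs came first (244 ± 40.2 CPM), then mutant EECs (213 ± 40.6 CPM), wild-type PECs (36.2 ± 6.94 CPM) and mutant PECs (35.5 ± 4.03 CPM). In these 3 genes the genotypes overlapped within a tissue and did not pass the test, whereas the tissues differed within each genotype. Neighbours in the order that differ in both tissue and genotype were not tested. per2 was the 1 member with a called difference within a tissue, between wild-type and mutant EECs. For clocka, clockb and arntl1a no comparison within a tissue or a genotype was called.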

How the data were processed

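The authors prepared cDNA with Smart-seq2 and Nextera-XT libraries, aligned reads with STAR 2.5.4b to GRCz11 and deposited raw counts per Ensembl gene for each sample. The kit does not mark strand, so reads of overlapping or antisense genes cannot be told apart. The deposited counts were used unchanged, and CPM is a count per 1000000 counts on genes. Gene names came from ID and name pairs in the study's tables and a reference list, and per1a and arntl1b were the IDs left for the symbols PER1 and BMAL1.

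Tests used edgeR 4.0.16 (R 4.3.3) with TMM scaling, filterByExpr and robust quasi-likelihood F tests. P-values were adjusted by Benjamini-Hochberg across every gene in a fit. Each fit held 3 samples per group. Simulated data with 200 changed genes on the real means gave 74 recovered of 200 for tissue in the wild type, 62 of the 98 changed by 2 on the log2 scale, and 66 of 200 for genotype in EECs, 56 of 97 changed by 2. Of the genes changed by 1, 12 of 102 and 10 of 103 were recovered. The changed genes were drawn only from genes above a minimum mean count, so that recovery of genes with few counts was not measured. The real fits called 6602 and 780 genes, more than the 200 changed here, so that these recoveries do not carry over directly. Unchanged genes made up 9.76% and 16.5% of the calls in these simulations, and 15.9% for tissue in mutants and 2.08% for genotype in PECs, beside the 10% that the threshold aims at.

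All 8 members were named. Of each other list the called genes with the 3 largest changes in each direction were named, npas2, arntl2 and the cryptochromes were given by level, and for likeness the 2 genes with the highest r. The members and lists were chosen with earlier results of these data known. Alternatives were DESeq2 1.42.0, RLE or no scaling, no filter or 1 CPM in 3 samples as the filter, a 0.05 threshold, all 12 samples in 1 fit, wild-type EEC replicate 4 added, a replicate block, and each replicate left out. A planned search for promoter motifs was not run, and no sequences or coordinates were used here.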

Additional observations from a re-analysis of the deposited data

Results flagged for a closer look

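The effect of pax6b loss differed between EECs and PECs, by edgeR's interaction test over 12 samples, for 8 of 65 genes tested, beside 3.58% of all genes. The 65 were clock genes, the light-induced list and opsins, and none of the 8 was a core member. The value is the log2 change from wild type to mutant in EECs minus that in PECs, and it was -2.28 for xpc, -1.72 for cry-dash, -1.67 for cry3b, -1.52 for cry5, -2.35 for parapinopsinb and -4.78 for tmtops2a. Positive values were found for rorcb (5.40) and nr1d1 (4.18). The value for nr1d1 depends on how near-zero counts are treated, because mutant PECs held 1, 0 and 6 counts. xpc, rorcb, parapinopsinb and tmtops2a were called in all 20 alternatives. cry-dash and cry3b missed the threshold in 8 of 20, nr1d1 in 9 of 20 and cry5 in 12 of 20, with adjusted p up to 0.180, 0.194, 0.199 and 0.228.

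In the 4 wild-type EEC samples, 5 of 62 genes had 1 sample far from the other 3 by Dixon's ratio of gap to range, above its 95% critical value, and chance gives about 1 such gene in 20. bhlhe40 was high in replicate 1, at 933 CPM (ratio 0.866), and tefa was low in replicate 2, at 277 CPM (0.868). cpdp was high in replicate 3, at 134 CPM (0.864), and csnk1db and ddb2 were high in replicate 4, at 338 and 84.7 CPM (0.853 and 0.860). None of the 8 members was among them.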

How the results depend on the processing

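The direction of each period gene between tissues, its call, and the fall of per2 in mutant EECs held under every alternative run. Against 780 genes called in mutant EECs, DESeq2 called 1705 and a threshold of 0.05 left 477, and leaving out single libraries gave 391 to 678. In mutant PECs 2089 genes were called, 1199 with the replicate block and 1148 to 3873 without single libraries, and members called ranged from 0 to 1, the highest in both cases without wild-type PEC replicate 3. For the interaction, 755 genes were called, 1379 by DESeq2, 480 at 0.05 and 503 to 1017 without single libraries, with 0 to 1 members. Scaling by library totals took the median log2 change of all genes from -0.06 to -0.22 for tissue in mutants, from 0.02 to 0.24 for mutant PECs and from 0.01 to -0.16 for the interaction. Under that scaling, arntl1a turned to -0.0862 for tissue in mutants, and per2 and clocka to 0.20 and 0.22 in mutant PECs. The mean per3 level in mutant PECs moved to 30.8 CPM with TMM scaling.

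The labels did not state a pairing of same-numbered replicates. The correlations of the deviations of such replicates from group means ran from -0.14 to 0.26, and in no comparison was every pair above 0.1. For tissue in mutants all 3 were positive (0.069 to 0.26), and 5 of 6 samples correlated best with their own number. The count was 2 of 6 for tissue in the wild type and for mutant EECs, and 0 of 6 for mutant PECs. The replicate block turned per1b in mutant PECs to -0.0541, and changed the call of no member.

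Uncalled members changed sign when single libraries were left out, and the cause was not tested. The log2 changes ranged from -0.0852 to 0.32 for arntl1a between tissues in mutants. In mutant EECs they ranged from -0.39 to 0.62 for per1a, -0.0931 to 0.24 for per1b, -0.34 to 0.00109 for per3, -0.25 to 0.0259 for clocka, -0.0346 to 0.35 for arntl1a and -0.94 to 0.30 for arntl1b. In mutant PECs they ranged from -0.00678 to 1.52 for per1a, -0.29 to 0.41 for per1b, -0.34 to 0.47 for per2 and -0.29 to 0.17 for clocka. Low counts limit per1a and arntl1b in PECs most.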

Other observations

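Opsins, light-sensing G protein-coupled receptors, were low in both tissues with few exceptions. Of 18 opsin genes, 10 were tested between wild-type tissues, and 2 were higher in EECs and 2 lower, beside 34.2% of all genes called. tmtops3b was at 0.313 to 1.44 CPM in wild-type PECs and 9.95 to 20.4 CPM in wild-type EECs (log2 change 3.87, edgeR adjusted p = 0.000373). tmtops2a was also higher in wild-type EECs (3.41), while tmtopsb and parapinopsinb were lower (-4.77 and -2.23). In the mutants, 1 of 7 was higher in EECs, tmtops3b (5.01), and 3 were lower, tmtopsb (-6.03), parapinopsinb (-4.62) and tmtops2a (-1.38), beside 40.3% of all genes called. The call of tmtops2a there was lost without mutant EEC replicate 1 (-1.14, adjusted p = 0.106) and with all 12 samples in 1 fit (-1.31, adjusted p = 0.105).

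parapinopsinb, which encodes a non-visual opsin, was lower in mutants of either tissue. It was at 68.4 to 93.3 CPM in wild-type and 26.6 to 42.9 CPM in mutant PECs (log2 change -1.50, edgeR adjusted p = 0.00458), and at 11.3 to 25.7 CPM in wild-type and 0.758 to 1.62 CPM in mutant EECs (-3.87, adjusted p = 0.00152). tmtops2a rose in mutant PECs, from 0.145 to 0.495 CPM in the wild type to 5.98 to 8.22 CPM (log2 change 4.20, adjusted p = 0.000688). tmtopsb fell there (-2.20), and opn4a, a melanopsin gene, was lower in mutant PECs (-3.35). It was also called lower in mutant EECs, at 0 to 0.193 CPM against 1.24, 1.99, 6.20 and 0.0774 CPM in wild-type EEC replicates 1 to 4, so that the groups overlapped through replicate 4, which was outside the test. That call was lost without mutant EEC replicate 3 (adjusted p = 0.110). In all, 2 opsins were lower and 0 higher of 9 tested in mutant EECs, beside 4.18% of all genes called, and 3 were lower and 1 higher of 10 tested in mutant PECs, beside 11.2%.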
